A study of Mus musculus with 4 samples.

Results

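The cells described here are the osteoblast lineage cells of mouse digits taken after tip amputation, 625 of 93602 single-cell transcriptomes in 4 libraries. A cell was taken as a member when it held at least 1 unique molecular identifier (UMI, 1 captured RNA molecule) in at least 3 of 7 osteoblast and osteocyte genes, Sp7, Bglap, Bglap2, Ibsp, Dmp1, Phex and Smpd3. Kept cells had 200 to 5500 detected genes, at most 30000 UMIs and at most 10% mitochondrial UMIs. The rule gave 204 members of 19827 kept cells in the LNR library, 169 of 20669 in the sham library, 162 of 29076 in the SAR131675 library and 90 of 24030 in the control diet library.

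Osteoblasts build bone by secreting a matrix of type I collagen and small acidic proteins and by bringing calcium phosphate into it. Those that become enclosed in the matrix turn into osteocytes, while osteoblasts and their precursors also steer bone resorption by making RANKL (Tnfsf11), which drives osteoclast formation, and osteoprotegerin (Tnfrsf11b), a soluble decoy that binds RANKL. In the digit tip new bone forms directly in connective tissue after an early phase in which osteoclasts remove the stump bone.

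All 4 libraries, labelled as P3 (terminal phalanx) digit, came from hindlimb digits 2 to 4 cut at the proximal end of the second phalanx, so that the tissue held more than the terminal phalanx, while the study's methods describe tip amputation on digits 2 and 4. Members may therefore also come from second phalanx bone or from a digit not named as amputated, and cannot all be taken as cells of regenerating bone. The mice were female C57BL/6 mice (C57BL/6J in the study's methods) aged 6 to 8 weeks, and tissue of 10 mice was pooled in each library. The study asked how lymphatic vessels bear on osteoclasts and bone regeneration, and it used 2 pairs of libraries. In the first pair inguinal and popliteal lymph nodes were removed from one hindlimb (LNR), and the contralateral hindlimb was the sham control, so that the pair did not come from separate animals. In the second pair mice ate chow with 30 mg/kg SAR131675, an inhibitor of the lymphatic receptor VEGFR3, for 8 days, or a matched control diet. The labels do not give the day after amputation at which the digits were taken. Each condition had 1 library and its own batch number, so batch and condition cannot be told apart, and no test between conditions was possible. All intervals below are 95% intervals that cover counting error only.

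Total counts were 168507188 to 175998346 UMIs in the LNR and sham libraries and 448276501 to 585284877 in the diet libraries, and the members held 911977 to 1809838 UMIs per library. The median member had 5565 UMIs in LNR, 5994 in sham, 10156.5 in SAR131675 and 8494.5 in control diet. Diet libraries were deposited from a later release of the counting software than the LNR and sham libraries, so levels were compared within a pair only. Kept libraries shared 101 cell barcodes within the LNR pair and 210 within the diet pair, and 0 of these belonged to members in both libraries. Members with at least 1% of their UMIs in keratinocyte markers numbered 18, 32, 14 and 4 in LNR, sham, SAR131675 and control diet. Members with 3 or more immune markers numbered 8, 9, 2 and 0. The part of these cells in the results was not tested, and values without 2 kinds of cell groups described below are given beside the results.

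The 7 genes of the rule are given as a description, because they chose the cells. Bglap (ENSMUSG00000074483), which encodes osteocalcin, stood at 3764 CPM (counts of the gene per 1000000 UMIs of all members) in LNR, 4660 in sham, 2351 in SAR131675 and 1940 in control diet. Ibsp (ENSMUSG00000029306), bone sialoprotein, stood at 7736, 6536, 8475 and 7317 CPM in the same order. Sp7 (ENSMUSG00000060284), osterix, a transcription factor without which osteoblasts do not form, stood at 72.2, 72.0, 103 and 116 CPM. Bglap had a UMI in 89.5% to 97.6% of members of each library, against 0.280% to 0.984% of keratinocytes of the same libraries, whose median depth was 12401 to 20596 UMIs. Smpd3, a sphingomyelinase needed for normal mineralization, had the highest share in keratinocytes of the 7, with a UMI in 20% to 29.9% of members and in 11.0% to 12.7% of keratinocytes. Phex alone of the 7 was not past 2-fold above the other kept cells in all 4 libraries, with 3.34 CPM in LNR members against 2.62 in the other cells.

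Dmp1 and Phex, which rise as osteoblasts become osteocytes and which regulate phosphate, were found in few members. Dmp1 had a UMI in 7.35% of members in LNR, 11.8% in sham, 17.9% in SAR131675 and 12.2% in control diet. When each cell was thinned to 2500 UMIs before the same rule was applied, which left out 28, 11, 7 and 2 shallower members, these shares were 4.03%, 6.80%, 13.0% and 16.1%, and the order of the diet libraries turned. Between 37.5% and 72.1% of Dmp1 UMIs came from the 3 cells with the most. Sost, the sclerostin gene of mature osteocytes, had 2 UMIs in all 625 members, and Fgf23 had 3. Mepe, another osteocyte phosphoprotein, had 60 UMIs in 27 members, with 5 in LNR, 12 in sham, 25 in SAR131675 and 18 in control diet. Of the 8 genes on the osteocyte list 4 were measured well enough against the other kept cells. The receptor phosphatase gene Ptprz1, 1 of these, stood past 2-fold above the other kept cells in all 4 libraries. Of all 7113 genes measured, 8.31% did. Both shares leave out genes with few UMIs in members.

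Cells at the edge of the rule are given as a description. Cells with exactly 3 of the 7 genes, just inside, had a median of 24 UMIs of the 7 genes in LNR, 32 in sham, 17 in SAR131675 and 31 in control diet. Cells with exactly 2, just outside, numbered 331, 308, 191 and 149 and had medians of 6, 4, 5 and 5. Runx2, which the rule did not use, stood at 146, 174, 1078 and 1625 CPM in the cells with 3 genes and at 36.4, 27.0, 95.5 and 87.3 in those with 2. Members with fewer than 10 UMIs of the 7 genes numbered 23, 27, 20 and 15. Bglap and Bglap2 are paralogs that the rule counts as separate genes. With both counted as 1 gene, the members numbered 93 in LNR, 82 in sham, 106 in SAR131675 and 51 in control diet. Members whose rule genes were exactly Bglap, Bglap2 and Ibsp numbered 81, 68, 28 and 25.

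Genes outside the rule that stood above the other cells included bone genes and markers of other connective tissues. Of 7113 genes measured well enough, 591 stood past 2-fold above the other kept cells in all 4 libraries (8.31%), and 143 stood past 2-fold below (2.01%). These counts describe cells chosen by correlated genes and are not a test. A gene counted as measured by its UMIs in members alone, so genes low in members were left out more readily. Of 6 endothelial markers 0 were measured, and 0 stood above the other cells in any library. The counts above and below therefore cannot be weighed against each other. Of the 25 genes with the highest ratio in their lowest library, 24 are shown in the plot of leading genes. They included Runx2, the master transcription factor of the lineage, Dlx6, a further bone transcription factor, and Alpl, the phosphatase that frees phosphate for mineral. Among them were also the secreted proteins Spp1 (osteopontin), Omd (osteomodulin) and Ostn (osteocrin), the parathyroid hormone receptor Pth1r, the matrix protease Mmp13 and Ifitm5, a membrane protein of mineralizing osteoblasts. Of the markers of other connective tissues that were measured, 3 of 3 joint markers (Prg4, Comp and Fmod), 4 of 7 cartilage markers (Acan, Col2a1, Sox5 and Hapln1) and 2 of 4 tendon markers (Mkx and Thbs4) also stood past 2-fold above the other cells in all 4 libraries. Without the keratin-bearing and Prg4 groups described below, joint markers summed to 5568 and 5876 CPM in LNR and sham members, below the 6929 and 6806 of the other cells, and to 5209 and 4408 in SAR131675 and control diet, above 2932 and 3042.

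**Figure D1:**
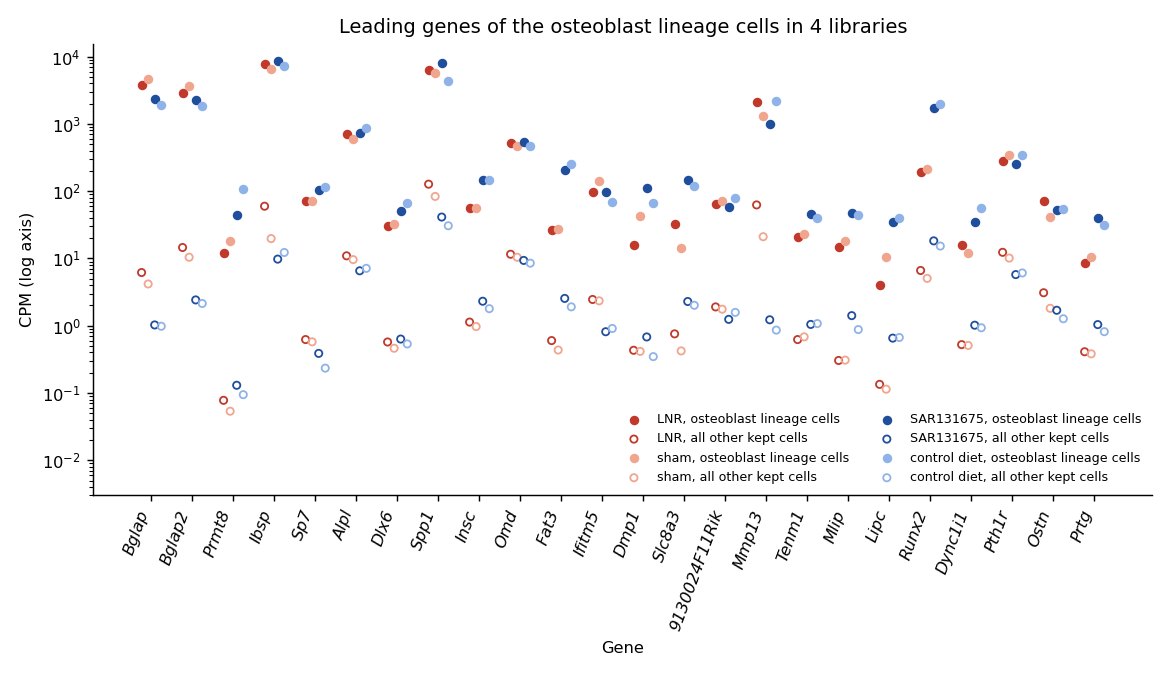
Level of 24 leading genes in CPM on a log axis, one column per gene, with filled points for osteoblast lineage cells and open points for all other kept cells of the 4 libraries. Filled points lie above the open points of the same library for every gene, for Alpl by 599 to 872 against 6.55 to 10.9; 5 of the 7 rule genes, which chose the cells, are among those shown.

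Alpl stood at 711 CPM in LNR, 599 in sham, 727 in SAR131675 and 872 in control diet, against 10.9, 9.61, 6.55 and 7.12 in the other cells. Pth1r stood at 282, 343, 254 and 341 against 12.3, 10.1, 5.75 and 6.09. Member levels of both genes lay far above those of the other cells in each library. Tendon cells, a connective tissue class compared below, stood nearer to the members. They had Alpl at 17.5, 18.35, 33.7 and 74.0 CPM and Pth1r at 54.2, 50.1, 77.2 and 78.55 in the same order. Prmt8, an arginine methyltransferase, was among the leading genes with 12.0, 17.99, 44.8 and 108 CPM in members and at most 0.130 in the other cells.

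Because several leading genes are classical targets of RUNX2, the letters of its core motif were looked for in the promoter windows of the leading genes, 250 bases before to 50 bases after the transcription start (RefSeq, mouse build GRCm38.p6; the deposited data are on GRCm39). The motif was ACCACA on either strand, that is, ACCACA or TGTGGT. It occurred in 5 of the 20 leading genes with a window (25%), against 5113 of 27025 genes in all (18.9%). Counted by window, since a gene can have several, it occurred in 5 of 28 windows of these genes (17.9%) against 5506 of 32851 in all (16.8%), so the share was near that of all windows. Bglap2, Sp7, Dlx6 and Ostn had no window. The windows of Ibsp, Alpl, Pth1r and Tnfsf11 held no match. The 5 sequences that matched, of the osteocalcin, osteopontin, Dmp1, Mmp13 and Runx2 genes, follow with the motif in capitals, each on the strand of its gene.
Bglap, chr3:88384563-88384628, minus strand: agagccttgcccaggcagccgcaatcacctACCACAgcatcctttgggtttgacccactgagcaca
Spp1, chr5:104434953-104435018, plus strand: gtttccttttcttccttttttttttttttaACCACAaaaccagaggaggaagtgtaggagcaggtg
Dmp1, second start, chr5:104202423-104202488, plus strand: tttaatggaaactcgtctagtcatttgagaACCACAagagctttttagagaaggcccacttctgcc
Mmp13, chr9:7272366-7272431, plus strand: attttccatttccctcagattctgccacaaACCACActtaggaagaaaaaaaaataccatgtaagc
Runx2, chr17:44814672-44814737, minus strand: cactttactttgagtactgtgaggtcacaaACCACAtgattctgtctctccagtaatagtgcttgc
The motif began at base -132 from the start in Bglap, -128 in Spp1, -164 in Dmp1, -118 in Mmp13 and -80 in Runx2, whose window held 2 further matches that began at bases 23 and 31 after the start. A match is a run of letters and not a measured binding site.

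The members were not uniform. Clustering within each pair, done after the data had been seen and used only as a description, gave 6 groups in the LNR pair and 7 in the diet pair, named here by their leading genes. The kinds that occurred in both pairs were as follows. A keratin-bearing group (led by Cst6, Defb6 and Krt14 in the LNR pair and by Lor, Hrnr and Wfdc21 in the diet pair) held 2.01% and 2.45% of its UMIs in keratinocyte markers. A group led by Prg4, the lubricin of joint surface cells, had a median of 6 UMIs of the 7 rule genes in both pairs and Prg4 at 192679 and 163537 CPM. In the diet pair its 23 cells had 0 Sp7 UMIs and Alpl at 6.31 CPM, and 69.6% of them had a Smpd3 UMI. Their Runx2 stood at 63.1 CPM, against 1831, 2841 and 2139 in the groups led by Krt18, Postn and Apod. These cells met the rule, but their levels do not bear out the name osteoblast. A group led by cartilage genes (Col2a1, Snorc, Cytl1, and Snorc, Col2a1, Eln) had the highest Ibsp of its pair, 32511 and 25166 CPM.

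**Figure D2:**
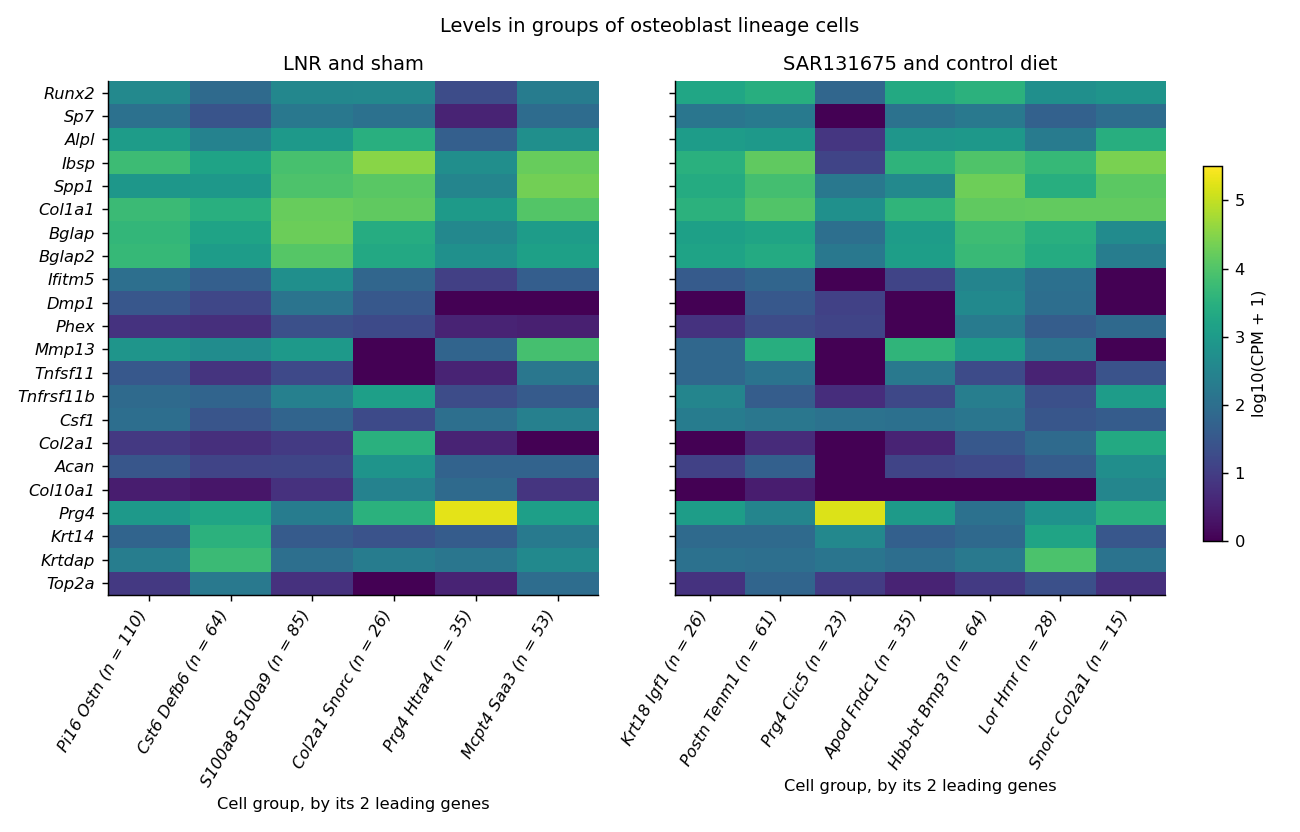
Levels of 22 genes as log10(CPM + 1), by color, in the groups of osteoblast lineage cells of each pair, with the number of cells under each column. Mmp13 and Tnfsf11 are highest together in the Mcpt4 Saa3, Postn Tenm1 and Apod Fndc1 groups, and Tnfrsf11b is highest in the groups led by Col2a1 or Snorc. Only the rule genes were kept out of the clustering, so the other genes shown could help form the groups.

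In the LNR pair the group led by S100a8, S100a9 and Fxyd2 (85 cells) had the highest osteocalcin, with Bglap at 18204 CPM and Ifitm5 at 540; S100a8 and S100a9 are known from neutrophils, and its 10 leading genes also held Cd74, H2-Aa and H2-Ab1, class II antigen presentation genes, while its keratinocyte share was 0.0327% of UMIs. In the diet pair the group led by Hbb-bt, Bmp3 and Lipc (64 cells) was the counterpart by level, with Bglap at 6144 and Dmp1 at 400 CPM. The largest group of the LNR pair, led by Pi16, Ostn and Ifit1 (110 cells), had Alpl at 1071 and Mmp13 at 741 CPM. The group led by Postn, Tenm1 and Top2a in the diet pair (61 cells) had Mki67, a gene of dividing cells, at 56.5 CPM, from 31 UMIs in 4.92% of its cells, all with SAR131675, and the keratin-bearing group of the LNR pair had it at 84.1. Leaving out the keratin-bearing and Prg4 groups left 156, 118, 121 and 80 members. Values on these are given below as values without the 2 kinds of groups. The members left out were not all weak in the rule genes. The keratin-bearing group had a median of 24.5 rule gene UMIs in the LNR pair and 88 in the diet pair. In the diet pair the kept groups led by Krt18, Apod, Postn, Hbb-bt and Snorc had 25, 43, 69, 112 and 139. The keratin-bearing group held 25 SAR131675 members, while 14 SAR131675 members in all had at least 1% keratinocyte UMIs.

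Tnfsf11 and Tnfrsf11b, the 2 arms of osteoclast control, were each seen in a minority of members. A Tnfsf11 UMI was found in 29 members of LNR, 23 of sham, 30 of SAR131675 and 28 of control diet, and a Tnfrsf11b UMI in 56, 37, 45 and 25. Members with both numbered 2, 2, 7 and 4, where the product of the 2 shares gives 7.96, 5.04, 8.33 and 7.78. At least 1 Tnfsf11 UMI was found in 13.6% to 31.1% of members of each library and in 0% to 0.138% of keratinocytes, and for Tnfrsf11b in 21.9% to 27.8% against 0.369% to 0.560%. Members held 13.0%, 13.2%, 15.6% and 32.7% of all Tnfsf11 UMIs of their libraries, so that most Tnfsf11 RNA lay in other cells.

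The 2 arms separated by Mmp13, collagenase 3, which cuts fibrillar collagen (a split chosen after the data had been seen, given without a test). In members with an Mmp13 UMI, Tnfsf11 stood at 97.6 CPM in LNR, 51.9 in sham, 74.5 in SAR131675 and 194 in control diet. In members without one it stood at 7.77, 8.37, 22.0 and 30.4. Tnfrsf11b ran the other way, at 48.8, 9.73, 23.8 and 54.3 CPM with Mmp13 and at 202, 226, 259 and 181 without. Tnfsf11 was higher with Mmp13 in 4 of 4 libraries by a mean log2 difference of 2.58 (SD 0.73, n = 4), and Tnfrsf11b was lower in 4 of 4 by a mean of -2.88 (SD 1.25, n = 4). A Tnfrsf11b UMI was found in 15.1%, 5.80%, 22.4% and 17.95% of members with Mmp13. Without Mmp13 it was found in 34.4%, 33%, 30.8% and 35.3%, so the shares of cells differed less than the levels. For Tnfsf11 these shares were 30.1%, 27.5%, 32.8% and 51.3% with Mmp13 and 5.34%, 4%, 10.6% and 15.7% without. Median depth was 5960 UMIs with and 5516 without in LNR, 7116 and 5367 in sham, 10881 and 9708 in SAR131675 and 8767 and 8247 in control diet. Without the keratin-bearing and Prg4 groups the mean differences were 1.97 and -3.84.

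**Figure D3:**
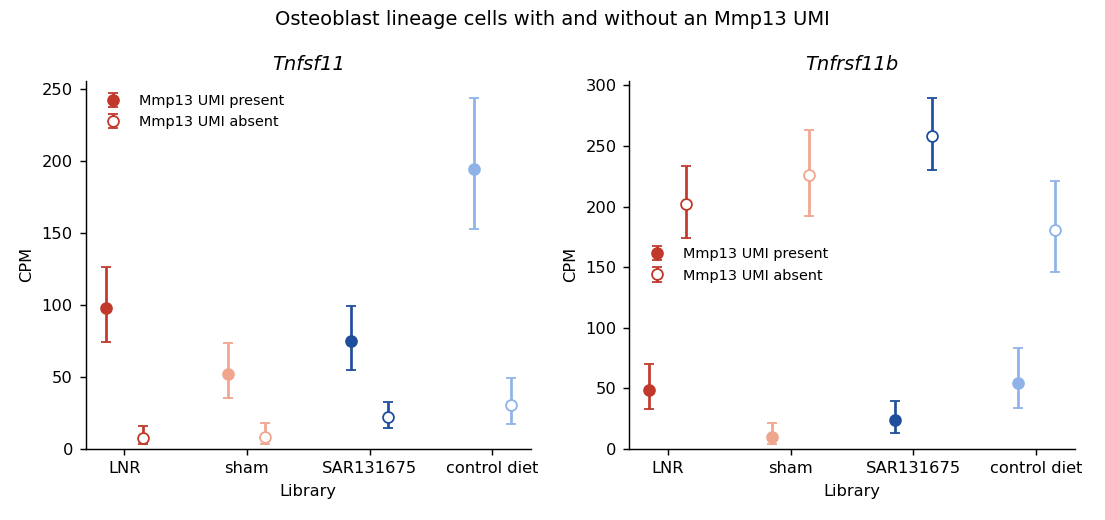
Tnfsf11 (left) and Tnfrsf11b (right) in CPM in members with (filled) and without (open) an Mmp13 UMI in the 4 libraries, with exact 95% Poisson intervals for counting error. Filled points lie above open points for Tnfsf11 (51.9 to 194 against 7.77 to 30.4) and below them for Tnfrsf11b (9.73 to 54.3 against 181 to 259).

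Spp1 followed Tnfsf11, with 12281, 9005, 13294 and 7146 CPM in members with Mmp13 and 2486, 2755, 5121 and 2291 in those without. Alpl was lower with Mmp13 in 4 of 4 libraries by a mean log2 difference of -0.18 (SD 0.12, n = 4), which came to -0.70 without the keratin-bearing and Prg4 groups. In the groups led by Col2a1 and Snorc, Mmp13 stood at 0 CPM in both pairs, Tnfrsf11b at 1286 and 1092, and Tnfsf11 at 0 in the LNR pair and 24.5 in the diet pair. The LNR pair group led by Mcpt4, Saa3 and Cma1, genes of mast cells and of the acute phase, was the opposite, with Mmp13 at 7481, Tnfsf11 at 147 and Tnfrsf11b at 36.3. Mmp13 and Spp1 were among the leading genes of that group, and Tnfrsf11b among those of the LNR pair group led by Col2a1. Genes that helped form the groups cannot support the split, so these group levels are a description. Col2a1 itself, cartilage collagen, was found in 31 members, and members with a Col2a1 UMI had more Tnfrsf11b in 4 of 4 libraries, by a mean log2 difference of 2.37 (SD 1.03, n = 4). The control diet library had 2 such members, 1 of them with Tnfrsf11b, and the highest difference of the 4 at 3.77.

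Members were compared with 850 tendon cells of the same libraries, another connective tissue class, for 6 genes the rule did not use. With 4 libraries the exact permutation test (two-sided) cannot give a p below 0.125, so it cannot pass 0.05. The LNR and sham libraries shared their animals and are not independent, which the test does not take into account. Runx2 was higher in members in 4 of 4 libraries, by a mean log2 difference of 3.67 (SD 0.60, n = 4, exact permutation p = 0.125, adjusted over 6 genes 0.188). The same p held for Tnfsf11 (mean 3.56, SD 1.80) and Tnfrsf11b (mean 2.64, SD 1.20), both higher in 4 of 4. It also held for Vegfa, an angiogenic growth factor, lower in 4 of 4 (mean -0.91, SD 0.23). Members were chosen by bone genes and tendon cells by tendon genes, so the directions of Runx2, Tnfsf11, Tnfrsf11b and Vegfa are a description. Tendon cells held 12, 9, 5 and 1 Tnfsf11 UMIs in LNR, sham, SAR131675 and control diet, so its differences rest on few UMIs. Csf1, the colony stimulating factor of osteoclast precursors, had a mean of 0.17 (SD 0.43, exact permutation p = 0.50, adjusted 0.60), higher in 3 of 4 libraries. Cxcl12, a chemokine of stromal cells, had a mean of 0.03 (SD 0.62, exact permutation p = 0.875).

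The share of members among kept cells was 0.557% (exact binomial 0.475% to 0.650%) with SAR131675 and 0.375% (0.301% to 0.460%) with control diet, a log2 ratio of 0.57 (0.19 to 0.96). Without the keratin-bearing and Prg4 groups, a setting chosen after the data had been seen, the ratio was 0.32 (-0.10 to 0.75), and its interval then held 0. In every other alternative for this pair the interval stayed above 0. The ratio was 0.49 (0.09 to 0.89) without cells holding markers of other classes. Among kept cells with under 1% keratinocyte UMIs it was 0.39 (0.01 to 0.78). The keratin-bearing group had 25 members with SAR131675 and 3 with control diet. Members made up 1.03% (0.893% to 1.18%) of kept LNR cells and 0.818% (0.699% to 0.950%) of kept sham cells, and the log2 ratio of these shares was 0.33 (0.03 to 0.63). It was 0.46 (0.11 to 0.82) without those groups and 0.17 (-0.13 to 0.47) among kept cells with under 1% keratinocyte UMIs. The interval also held 0 with at least 4 rule genes, with Bglap and Bglap2 as 1 gene, without Smpd3 and on thinned cells. A larger share of captured cells and a larger number of cells in the digit cannot be told apart.

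Between the diet libraries, Tnfsf11 was the most lowered osteoclast regulator. It stood at 40.3 CPM (31.6 to 50.7) with SAR131675 and 99.8 (80.3 to 123) with control diet, a log2 ratio of -1.31 (-1.77 to -0.85). The ratio was -0.997 without the keratin-bearing and Prg4 groups and -0.51 when cells above the upper limits on genes and UMIs were kept. Csf1 and Wnt5a, which also favor osteoclasts, were lower by less than 2-fold, with log2 ratios of -0.66 (-0.99 to -0.32) and -0.89 (-1.23 to -0.55). Tnfrsf11b was 177 CPM against 127, a log2 ratio of 0.48 (0.16 to 0.79) that turned to -0.63 when members were thinned to 2500 UMIs, and 3 cells held 45.6% and 48.3% of its UMIs. Cxcl12, a stromal chemokine, stood at 428 against 306 CPM, a ratio of 0.48 (0.29 to 0.69) that turned to -0.21 without the 2 kinds of groups. Sema3a, an osteoblast product that restrains osteoclasts, had a ratio of 1.22 (0.72 to 1.79) and of 0.08 without the 2 kinds of groups. Of the 10 osteoclast regulators 6 were measured well enough, 1 past 2-fold higher (Sema3a) and 1 past 2-fold lower (Tnfsf11); over all 7524 genes tested 144 were past 2-fold higher (1.91%) and 102 past 2-fold lower (1.36%).

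Of 8 matrix proteases and inhibitors 1, Mmp13, was past 2-fold lower with SAR131675. It stood at 984 CPM against 2180, a log2 ratio of -1.15 (-1.24 to -1.05), or -0.86 without the 2 kinds of groups. Mmp2, gelatinase A, stood at 439 against 754, a log2 ratio of -0.78 (-0.93 to -0.63). Of the 8 genes 6 were lower and 2 higher (Mmp16 at 0.55, 0.05 to 1.10, and Timp1 at 0.07), with a median log2 ratio of -0.28 beside -0.05 for all genes tested.

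Of the bone matrix and mineralization genes 3 passed 2-fold between the diet libraries. Spp1 stood at 7968 against 4349 CPM, a log2 ratio of 0.87 (0.82 to 0.92), and 1.08 without the 2 kinds of groups, with 37.0% and 49.5% of its UMIs in 3 cells. Col1a1, the main collagen of bone, stood at 9721 against 7497, a log2 ratio of 0.37 (0.33 to 0.42). Of 12 bone matrix genes 0 were past 2-fold higher, and 2 were past 2-fold lower, Col24a1 (-1.30) and Bglap3 (-1.21). Bglap3 is a close copy of Bglap whose reads may be shared with its paralogs. Without the 2 kinds of groups it had 20 against 6 UMIs, so its fall did not remain. Slc20a1, a phosphate importer, was the only mineralization gene past 2-fold, at 63.0 against 25.2 CPM, a log2 ratio of 1.30 (0.66 to 2.04). Enpp1, which makes the mineral inhibitor pyrophosphate, had 0.64 (0.29 to 1.02), Alpl -0.26, which came to 0.01 without the 2 kinds of groups, Ank -0.15, Ifitm5 0.45 and Slc20a2 0.29; Mepe and Phospho1, with 25 and 18 UMIs and with 1 and 0 UMIs, were below the minimum of 50 over the pair. Among 10 secretory pathway genes 8 were higher, led by the chaperone Hspa5 at 0.55 (0.43 to 0.68), and 0 were past 2-fold. Of these, 5 had an interval above 0, where 44.1% of all genes tested were higher and 8.63% had such an interval.

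Across the Wnt, the BMP and TGF beta, and the hormone and growth factor lists, 1 gene passed 2-fold with SAR131675, and it was lower. Of all 7524 genes tested 55.9% were lower, 13.6% with an interval below 0. In the Wnt list 9 of 11 measured genes were lower, 5 with an interval below 0, among them Dkk3, a secreted protein of the Dickkopf family, past 2-fold at 110 against 241 CPM (log2 ratio -1.13, -1.41 to -0.84, and -0.85 without the 2 kinds of groups). In the BMP and TGF beta list 14 of 17 were lower, 4 with an interval below 0, with Id3, a BMP target, at -0.39 (-0.54 to -0.23) and the BMP antagonist Nog at -0.52 (-0.81 to -0.24). In the list of hormone, FGF, IGF and hedgehog signaling 11 of 12 were lower, 7 with an interval below 0, with Pth1r at -0.42 (-0.63 to -0.21). Of 6 bone transcription factors measured 0 passed 2-fold, with Runx2 at -0.20, Twist1 at -0.16, Dlx5 at -0.40, Dlx6 at -0.40, Dlx3 at 0.50 and Atf4 at 0.08. Runx2 came to 0.04 without the 2 kinds of groups.

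Flt4, which encodes VEGFR3, the receptor that SAR131675 inhibits, had 1 UMI in all 625 members, in the LNR library. Vegfc, the main ligand of that receptor, stood at 34.3 CPM with SAR131675 and 78.9 with control diet, a log2 ratio of -1.20 (-1.72 to -0.69) and of -1.24 without the 2 kinds of groups. It was found in 73 members of the 4 libraries. Vegfd, the other ligand, had 13 and 8 UMIs. Of 12 vessel growth factors and receptors 6 were measured and 6 were lower, 2 with an interval below 0, where 55.9% of all genes tested were lower. Angpt1 at -0.01 turned under TMM scaling, and Vegfc alone was past 2-fold. Nrp2, a coreceptor of Vegfc, stood at 496 and 535 CPM, which gives -0.11 on the log2 scale (-0.27 to 0.05).

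Several of the largest ratios of the diet pair rested on few cells. The 10 largest higher ratios were those of Msmp, Krt9, Myh11, Angptl7, Lce1m, Col10a1, Acta2, Tagln, Tgm3 and Col17a1, smooth muscle, keratinocyte and cartilage genes among them. Msmp was found in 5 members of all libraries, with 113 UMIs in SAR131675 and 0 in control diet, which is at least 19.0-fold higher against a floor of 3 counts in the library, but 0 of these UMIs lay outside the keratin-bearing and Prg4 groups. Krt9 and Myh11 were at least 17.5-fold and 17.1-fold higher on the same floor. Without the 2 kinds of groups Krt9 had 3 UMIs against 0 and Lce1m, a keratinocyte gene, 5 against 2. In the same cells Tagln kept 99 UMIs against 0, Myh11 49 against 0 and Angptl7 46 against 0. Acta2 kept 164 against 11 and Col10a1 69 against 1. Acta2 stood at 232 against 14.2 CPM, and 75.9% of its UMIs with SAR131675 came from 3 cells. Col10a1, the collagen of hypertrophic cartilage, had 69 UMIs against 1, all 69 in 2 of the 162 SAR131675 members. Tgm3 and Col17a1, keratinocyte genes, had log2 ratios of 3.51 and 3.45, and without the 2 kinds of groups 6 and 12 UMIs against 2 and 4. Their SAR131675 UMIs were spread more widely, over 13.6% and 19.1% of members, with 33.9% and 37.0% in 3 cells.

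The 10 largest lower ratios were those of Hbb-bt, Eln, Hgf, Slc2a3, Rasgrf2, Krt79, Ebf3, Rnf213, Nfatc2 and Hba-a2. Eln, elastin, stood at 28.7 CPM against 368, and 98.5% of its control diet UMIs came from 3 cells. Hgf, hepatocyte growth factor, stood at 17.7 against 103, with 92.5% of control diet UMIs in 3 cells. Slc2a3, a glucose transporter, was spread more widely, at 11.1 against 46.0 with 30.0% and 40.5% of UMIs in 3 cells, and had a log2 ratio of -2.04, or -1.99 without the 2 kinds of groups. Krt79, a keratin of hair follicles, had a ratio of -1.73, which turned to 1.46 without the 2 kinds of groups, from 19 UMIs against 4. Nfatc2, a transcription factor of calcium signaling, stood at 28.2 against 88.8 (log2 ratio -1.65).

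**Figure D4:**
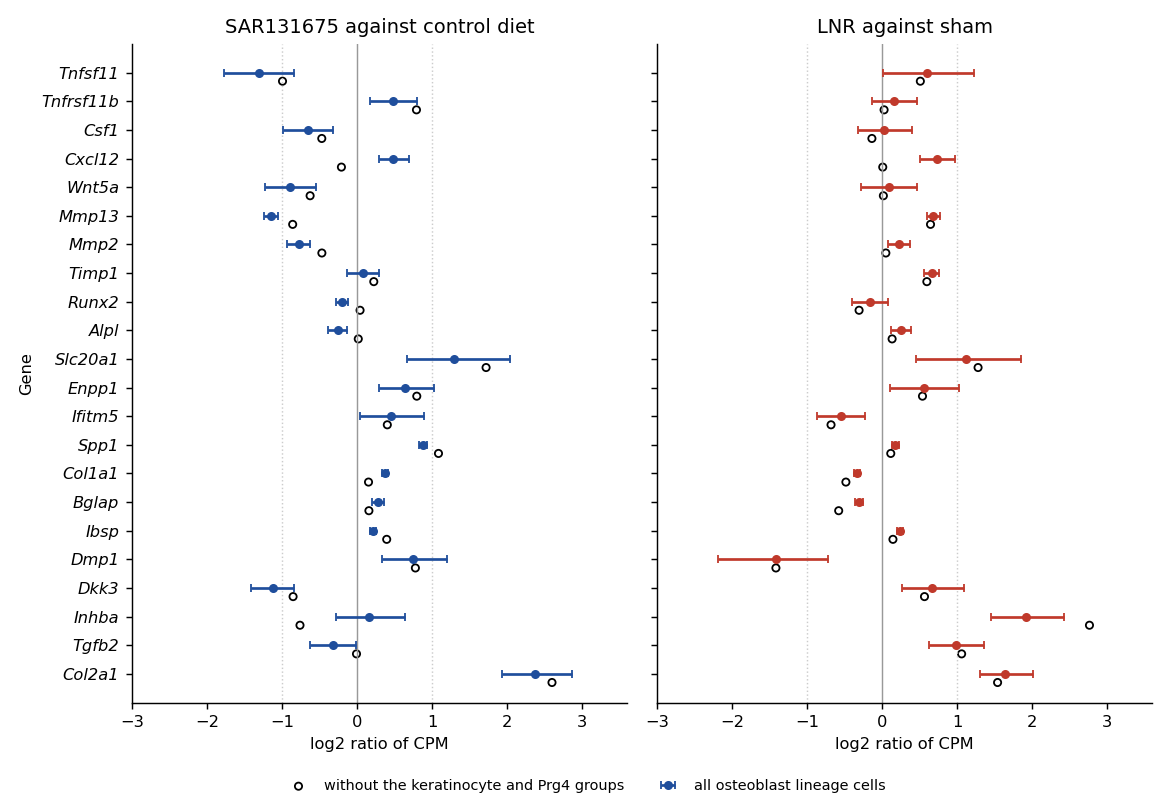
Log2 ratios of CPM for 22 genes between SAR131675 and control diet (left) and between LNR and sham (right), with exact 95% intervals for counting error; filled points are all osteoblast lineage cells, blue on the left and red on the right, and open points are the cells without the keratin-bearing and Prg4 groups. Tnfsf11 lies at -1.31 on the left and 0.61 on the right, Mmp13 at -1.15 and 0.68, and Slc20a1 at 1.30 and 1.12; dotted lines mark 2-fold.

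Of 6199 genes tested between LNR and sham 58 were past 2-fold higher in LNR (0.936%) and 73 past 2-fold lower (1.18%), and the median log2 ratio of all genes was 0.01. Of all genes 51.6% were higher in LNR, 7.60% had an interval above 0 and 7.03% one below 0. Tnfsf11 stood at 43.5 CPM (33.6 to 55.4) in LNR and 28.5 (20.2 to 39.1) in sham members. The log2 ratio was 0.61 (0.01 to 1.23), and 0.52 (-0.10 to 1.16) without the 2 kinds of groups. It ranged from 0.39 (-0.70 to 1.53), with at least 4 rule genes, to 1.22 (0.29 to 2.22), with Bglap and Bglap2 as 1 gene, over the alternatives, and its interval held 0 in 6 of them. Tnfrsf11b stood at 141 and 126, a ratio of 0.16 (-0.14 to 0.47), and Csf1 at 94.98 and 92.96, a ratio of 0.03 (-0.33 to 0.39). Cxcl12 stood at 304 and 182, a ratio of 0.74 (0.51 to 0.97) that came to 0.01 without the 2 kinds of groups. All 7 osteoclast regulators measured were higher in LNR, 4 with an interval above 0, with a median of 0.60, and 1 was past 2-fold. Csf1 came to -0.14 without the 2 kinds of groups, and Tnfrsf11b to -0.15 on thinned cells, -0.27 without cells holding markers of other classes and -0.08 with Bglap and Bglap2 as 1 gene. The gene past 2-fold was Ccl2, a monocyte chemokine, at 68.2 against 24.0 CPM (log2 ratio 1.49, 0.92 to 2.13), with 72.5% and 65.6% of UMIs in 3 cells and immune markers in 8 and 9 members. Ccl7, Wnt5a and Sema3a had ratios of 0.69, 0.09 and 0.64. Of the 10 regulators on the list, Il34, Il6 and 1 of these last 3 were below the minimum and are not among the 7 measured.

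Mmp13 stood at 2104 CPM in LNR against 1311, with a log2 ratio of 0.68 (0.60 to 0.77), and Timp1, an inhibitor of such proteases, at 1607 and 1018, a ratio of 0.66 (0.56 to 0.76). All 7 proteases and inhibitors measured were higher, 4 with an interval above 0, with a median of 0.23, and 0 passed 2-fold, while Timp2 came to -0.06 without the 2 kinds of groups. Inhba, the activin A subunit, stood at 128 against 33.7 CPM (log2 ratio 1.91, 1.45 to 2.42, and 2.76 without the 2 kinds of groups), with 67.5% of LNR UMIs in 3 cells. Tgfb2 stood at 135 against 68.2, a ratio of 0.98 (0.62 to 1.36).

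Of 11 bone matrix genes measured between LNR and sham 7 were lower and 4 higher, 5 and 2 of them with intervals away from 0. Col1a1 stood at 6192 against 7807 CPM (log2 ratio -0.33, -0.37 to -0.29), Col1a2 had -0.33 and Sparc, a collagen-binding matrix protein, -0.30. Col11a1 had -0.43 (-0.69 to -0.17), Col5a1 0.22 (-0.01 to 0.45) and Col5a2 -0.05 (-0.20 to 0.10), and Col24a1 was below the minimum. Higher with intervals above 0 were Spp1 at 0.18 (0.13 to 0.22) and Omd at 0.17 (0.01 to 0.32). Without the 2 kinds of groups they came to 0.11 and -0.01. Col11a2 was the only matrix gene measured past 2-fold, at 28.1 against 60.7 (log2 ratio -1.10). Of 13 collagen processing genes 12 were higher, 6 with intervals above 0, and 1 was past 2-fold, the collagen prolyl hydroxylase P4ha2 at 40.1 against 16.5 (log2 ratio 1.26, 0.56 to 2.06). Serpinh1, P3h1, Crtap and Pcolce turned below 0 without the 2 kinds of groups (-0.14, -0.01, -0.16 and -0.18). Slc20a1 stood at 42.8 against 19.5, a ratio of 1.12 (0.46 to 1.85), Enpp1 had 0.56, Alpl 0.25, Ank 0.22, Slc20a2 -0.98 and Ifitm5 -0.55. Dmp1, a rule gene, stood at 16.1 against 43.5 with a ratio of -1.42 (-2.19 to -0.73), given as a description. Of 5 bone transcription factors measured 0 passed 2-fold, with Runx2 at -0.16, Twist1 at -0.19, Atf4 at -0.06, Dlx5 at 0.02 and Dlx6 at -0.10. In the Wnt list Sfrp2, a secreted Wnt antagonist, was past 2-fold lower at -1.18 (-1.96 to -0.46).

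The largest higher ratios in LNR were those of Saa3, Ces4a, Wfdc2, Klk10, Serpinb6e, Mcpt4, Cpa3, Tpsb2, Awat1 and Atp1b1. Saa3, an acute phase protein, had 219 UMIs in LNR and 0 in sham, at least 65.1-fold higher against a floor of 3 counts in the library, but 95.9% of them came from 3 of the 6 members with a UMI. Mcpt4, Cpa3 and Tpsb2, the proteases of mast cells, had 391, 166 and 112 UMIs against 16, 9 and 6 and were found in 13, 12 and 11 members. Klk10 and Serpinb6e had 0 UMIs in either library without the 2 kinds of groups, Awat1 had 0 and 1 and Ces4a 1 and 0. In the same cells Saa3 kept 218 UMIs against 0, Mcpt4 391 against 16, Cpa3 166 against 8 and Tpsb2 112 against 5. Wfdc2 kept 54 against 0 and Atp1b1 81 against 6. The largest lower ratios were those of Wfdc12, Hrnr, Wfdc21, Flg, Slurp1, Krt42, Lor, Wfdc17, Hba-a2 and Hbb-bt, mostly genes of the outer epidermis and hemoglobin. Keratinocyte markers summed to 5035 CPM in LNR and 8492 in sham, and to 650 and 992 without the 2 kinds of groups, where Lor, at a ratio of -3.82 over all members, had 11 UMIs against 12.

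The genes past 2-fold higher in both pairs were Col2a1, Tnfaip6, Slc20a1 and Hp, 2.78% of the 144 of the diet pair and 6.90% of the 58 of the LNR pair. Those past 2-fold lower in both were Wfdc17, Hba-a1, Hba-a2 and Hbb-bt, 3.92% of 102 and 5.48% of 73. Over all genes tested, 1.91% and 0.936% were past 2-fold higher in the diet and LNR pairs, and 1.36% and 1.18% past 2-fold lower. Of the 5776 genes tested in both pairs, 15 were past 2-fold higher with SAR131675 and lower in LNR, and 1 the other way. Without the keratin-bearing and Prg4 groups, Col2a1 (2.60 and 1.54 in the diet and LNR pairs) and Slc20a1 (1.72 and 1.28) stayed past 2-fold higher in both. Tnfaip6 came to 0.71 and 0.98, and Hp to 0.98 in the LNR pair, with 3 UMIs left in each diet library. Of the lower genes 0 of 4 stayed past 2-fold in both, since Wfdc17 came to -0.17 in the diet pair and Hba-a1, Hba-a2 and Hbb-bt had 16, 7 and 8 UMIs left in LNR against 8, 2 and 3 in sham, too few for a ratio. Col2a1 stood at 204 CPM in LNR, 65.2 in sham, 251 in SAR131675 and 48.3 in control diet, with 93.8% to 94.2% of UMIs in 3 cells of the first 3 libraries and all of them in 2 cells of control diet. Tnfaip6, a hyaluronan-binding protein induced in inflammation, stood at 88.3, 42.0, 102 and 45.0, in 129 members. Slc20a1 was found in 121 members, with 28.1% to 39.1% of UMIs in 3 cells of each library. Without cells holding markers of other classes its log2 ratio came to 1.38 in the diet pair and to 0.86, under 2-fold, in the LNR pair. Hp, haptoglobin, was found in 42 members. Tnfsf11 and Mmp13 had opposite directions in the pairs, and the difference between the pairs was not tested.

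Summed levels of markers of other tissues in the members differed between libraries, and their part in the ratios above was not tested. Of 7 keratinocyte markers 7 were higher with SAR131675, 7 with an interval above 0 and 3 past 2-fold (Krt5, Krt14 and Krt10). Of all genes tested in that pair 44.1% were higher, 8.63% with an interval above 0 and 1.91% past 2-fold. Keratinocyte markers summed to 5015 CPM with SAR131675 and 2331 with control diet, and to 703 and 611 without the 2 kinds of groups. Joint markers summed to 34162, 27027, 33954 and 28632 CPM in LNR, sham, SAR131675 and control diet, and to 4408 to 5876 without these groups. Cartilage markers summed to 499, 376, 1109 and 734, tendon markers to 292, 191, 268 and 329, Schwann cell markers to 185, 141, 87.9 and 84.4, and melanocyte markers to 13.4, 0.750, 1.10 and 1.10. Endothelial markers summed to 7.74 to 21.7 CPM in the 4 libraries and immune markers to 108, 127, 23.2 and 2.19 in LNR, sham, SAR131675 and control diet. Osteoclast markers summed to 385 to 419 CPM, nearly all from Ctsk at 343 to 395, in 72.1% to 92.2% of members, while Dcstamp and Calcr had 0 UMIs in every library and Acp5, the osteoclast phosphatase, stood at 24.1 to 37.5. Mural cell markers summed to 242, 145, 359 and 125, and hemoglobins with Alas2 to 63.5, 572, 409 and 1074.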

How the data were processed

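Digit cells were profiled with the 10x 3' assay in 4 libraries. The authors deposited filtered UMI counts per gene and barcode, made with Cell Ranger and mapped to GRCm39 per the labels, which give version 6.1.2. The file headers give 6.1.2 for LNR and sham and 8.0.1 for both diet libraries. The deposited counts of the 4 matrices were used as they were. Cells were kept by the limits stated above, and members, lists and named genes were chosen with earlier results of these data known. Doublets were not called; only the upper limits removed them. The methods give the start of the diet as days before amputation, and the labels give 8 days in all.

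UMIs were summed over members per library and divided by all their UMIs (CPM, per 1000000). A gene was tested within a pair at 50 or more UMIs over both libraries and named past 2-fold; log2 ratios across genes have 0.5 UMIs added to each sum, those of Tnfsf11, Tnfrsf11b and of shares do not. Against other cells a minimum of 100 UMIs in members over all libraries applied. A fold against 0 used a floor of 3 counts. Intervals were exact (Poisson, Clopper-Pearson, conditional binomial) and cover counting error only, since reads of 1 pool of mice have no replicate. The interval code was tested on simulated counts. Tendon cells held at least 3 tendon markers and ratios to them used 1 CPM as pseudocount. Keratinocytes were cells with at least 5% of their UMIs in keratinocyte markers. Clustering within each pair used scanpy 1.11.5 with 2000 genes, 20 components, 15 neighbors and resolution 0.6. Named genes were the rule genes, the 25 leading genes (1 is not reported here), the 10 largest ratios each way in each pair, genes past 2-fold in both pairs, and of each list the most abundant 4, those past 2-fold and all osteoclast, mineralization, osteocyte and transcription factor genes. Scaling by TMM came from edgeR 4.0.16 and shifted log2 ratios by 0.06 in the diet pair and -0.01 in the LNR pair. Python 3.11.15, scipy 1.17.1 and R 4.3.3 were used.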

Additional observations from a re-analysis of the deposited data

How the results depend on the processing

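Alternatives chosen after the data had been seen were members with at least 10 UMIs of the rule genes and members without the keratin-bearing and Prg4 groups. No paired analysis was possible because each condition has 1 library. The log2 ratio of Tnfsf11 with SAR131675 was -0.51 without upper limits on genes and UMIs. That of Tnfrsf11b turned to -0.0073 with at least 2 rule genes and to -0.63 on thinned cells, and in the LNR pair it came to -0.15 on thinned cells and to -0.27 without cells holding markers of other classes. The cause was not tested. Of the genes past 2-fold, counts moved with the minimum by construction. For SAR131675 the 144 higher and 102 lower genes came to 394 and 296 at 20 UMIs, 67 and 49 at 100 UMIs, 29 and 23 on thinned cells, and 57 and 58 without the keratin-bearing and Prg4 groups. The 144 came to 88 without upper limits, 93 without cells of other classes and 217 without the 3 deepest members of each library. For LNR the 58 higher and 73 lower genes came to 191 and 265 at 20 UMIs, 29 and 37 at 100 UMIs, and 15 and 14 on thinned cells. The 58 came to 98 with at least 2 rule genes. The 73 came to 228 with at least 2 rule genes, 44 with at least 4, 143 without upper limits, 38 without cells of other classes, 48 with at least 10 rule UMIs and 44 without the keratin-bearing and Prg4 groups. With at least 2 rule genes the diet pair had 121 higher and 140 lower genes, fewer in sum than the LNR pair, and without upper limits 88 and 113, again fewer. Dmp1 was found in 4.03% to 16.1% of thinned members, which limits its precision.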

Other observations

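Of 13 genes of limb position, 9 to 12 were above the other cells in the members of each library. Of the 7 measured well enough, Hoxa13, Hoxa11, Hoxd11, Msx1 and Tbx4 were past 2-fold above the other kept cells in all 4 libraries. So were 8.31% of all genes measured, and both shares leave out genes with few UMIs in members. With SAR131675 all 7 measured were lower than with control diet, 4 with an interval below 0, with a median log2 ratio of -0.77. Of all genes tested in that pair 55.9% were lower, 13.6% with an interval below 0. Hoxa11, a patterning gene of the limb, passed 2-fold at 17.1 against 35.1 CPM (log2 ratio -1.03, -1.79 to -0.28) and came to -0.38 without the keratin-bearing and Prg4 groups. Msx1, which marks the regenerating digit, stood at 112 against 191 (log2 ratio -0.77, -1.07 to -0.47) and at 140 and 130 in LNR and sham.

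Cell division genes were below the other cells, with a summed level of 292, 345, 191 and 89.9 CPM in LNR, sham, SAR131675 and control diet members against 469 to 574 in the other cells. Top2a, which untangles replicated DNA, stood at 26.0 CPM with SAR131675 and 6.58 with control diet, a log2 ratio of 1.88 (0.75 to 3.50), with 72.3% of SAR131675 UMIs in 3 cells. Mki67 stood at 20.7 in LNR and 42.7 in sham, a ratio of -1.03 (-1.72 to -0.39), with 6 and 9 UMIs left without the keratin-bearing and Prg4 groups.

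Stress and immediate early genes were all 8 lower with SAR131675, 6 with an interval below 0, with a median of -0.29, and 0 passed 2-fold. Of all genes tested in that pair 55.9% were lower, 13.6% with an interval below 0. Junb at -0.05 and Egr1 at -0.04 turned under TMM scaling. Fos stood at 1295 against 1568 CPM. In the LNR pair 4 of 8 were higher. Of the interferon-stimulated genes 3 of 7 were measured in the diet pair and 2 in the LNR pair, and 0 passed 2-fold. Of the hypoxia and glycolysis genes 0 passed 2-fold in either pair, with Ldha at -0.03 and 0.18. Pi16, a fibroblast marker, was past 2-fold higher in LNR at 89.0 against 32.2 CPM (log2 ratio 1.45, 0.96 to 2.00), in 27 members of all libraries.

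Genes past 2-fold higher in one pair and lower in the other numbered 15 of the 5776 tested in both (0.260%) higher with SAR131675 and lower in LNR, and 1 the other way, Defb6. Among the 15 were Krt2, Krt24, Pkp1 and Mt4, genes of the epidermis, besides Apoc1, Car3, Cilp and Igfbp2. The keratin-bearing group had 25 and 3 members with SAR131675 and control diet and 26 and 38 in LNR and sham, and its part in this count was not tested.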
